A study of Paeonia lactiflora with 8 samples.

Results

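The 3 CYP716-type cytochrome P450 genes of herbaceous peony described here are comp23094_c0 and comp22273_c0, both carrying the symbol CYP716B2, and comp23146_c0, which has no symbol and shares their description. They were taken by identifier from a transcriptome of 30177 assembled genes, and because they had been singled out with their levels across the organs already known, those levels are given as a description without a test. Poly(A) RNA of Paeonia lactiflora was sequenced in root, leaf and flower of the blossom period and in fruit of the young fruit period, with 2 biological replicates of each organ and 8 libraries in all. The plants carry no stated treatment or genotype, and organ and period cannot be told apart for the fruit. The organs were chosen by the study for their different content of paeoniflorin, the monoterpene glycoside for which peony root is known. Per the file headers, levels are the authors' TPM, a level that allows for gene length, and estimated counts.

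Cytochrome P450s are haem enzymes, anchored in plants mostly to the endoplasmic reticulum, that insert oxygen into small molecules with electrons from NADPH-cytochrome P450 reductase and, for some of them, cytochrome b5. The CYP716 family belongs to the same clan as the brassinosteroid, gibberellin and abscisic acid oxidases, and many of its members in flowering plants oxidise pentacyclic triterpenes such as beta-amyrin and lupeol, the scaffolds of oleanolic and betulinic acid. Those scaffolds are made from squalene through oxidosqualene, and UDP-glycosyltransferases of the UGT73 and UGT91 families are known for adding sugars to triterpenes. The symbol CYP716B2 itself was given to a spruce P450, and the substrate of the peony genes is not given by their annotation.

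The annotation placed the 3 genes together but did not name a plant function. All 3 had the same KEGG description, which is that of an animal P450 subfamily of retinoic acid metabolism, and the pathway "Retinol metabolism". The assembled lengths were 1783 bases for comp23094_c0, 1557 for comp23146_c0 and 1643 for comp22273_c0. Comp23146_c0 was assembled as 2 transcripts and the others as 1 each. Gene ontology gave comp23146_c0 the terms for taxadiene 5-alpha-hydroxylase and paclitaxel biosynthesis, a reaction known from yew, and it was the 1 ID of 30177 with either term. The symbol CYP716B2 was carried by 8 IDs in all, so reads shared by near-identical copies may be split among them by the counting, and the level of any single copy is uncertain in this respect.

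Total estimated counts ran from 30399492 to 49421130 per library. Transcripts named TAR1-A, a name of ribosomal antisense transcripts, took 1.77% to 41.4% of the counts, the highest share being that of flower replicate 2. The 3 genes lay below 1 TPM in flower replicate 1 as well, where that share was 5.86%. The 22 IDs matched by prefixes of chlorophyll-binding and Rubisco small-subunit symbols summed to 79.7 and 331 TPM in root and 137545 and 106728 TPM in leaf. Their sums were 849 and 1455 TPM in flower and 12241 and 3318 TPM in fruit. Among them were CAB39 and CABP2, symbols used for calcium-binding proteins, so these sums may not be of the intended genes alone. The 7 IDs matched by floral MADS symbols (FBP2, GLO, SEP1, sepA and sepH) summed to 46.2 and 35.1 TPM in root and 19.7 and 20.5 TPM in leaf. Their sums were 810 and 763 TPM in flower and 95.6 and 66.5 TPM in fruit. The symbols sepA and sepH were caught by the SEP prefix and are not those of floral MADS genes, so these sums are not of MADS genes alone. The words used for seed storage proteins as fruit markers matched 0 IDs, and the 2 IDs matched as root markers are not specific to root, so the root and fruit labels were not checked in this way.

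Comp23094_c0 was the most abundant of the 3 genes in fruit and root. Its level was 102 and 299 TPM in root, 15.65 and 8.72 TPM in leaf, 0.46 and 0.75 TPM in flower and 2018 and 640 TPM in fruit (replicates 1 and 2). Fruit was highest, followed by root, leaf and flower, and no neighbouring organs in that order overlapped. The mean was 200 ± 139 TPM in root, 12.2 ± 4.90 in leaf, 0.605 ± 0.205 in flower and 1329 ± 974 in fruit (SD, n = 2 each). In edgeR's fit of the counts across all 8 libraries, the log2 fold change was 3.55 ± 0.72 (SE) for root over leaf, 7.45 ± 0.87 for root over flower and -2.90 ± 0.70 for root over fruit. It was 3.89 ± 0.74 for leaf over flower, -6.45 ± 0.82 for leaf over fruit and -10.35 ± 0.97 for flower over fruit. For orientation, 12.4% of the 27939 genes tested passed the test in root against leaf in either direction, 20.6% in root against flower, 2.06% in root against fruit, 19.3% in leaf against flower, 9.64% in leaf against fruit and 14.7% in flower against fruit. The test called a gene when its Benjamini-Hochberg adjusted p was under 0.05 and its log2 fold change was 1 or more in size, and all 3 genes had entered that fit.

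Comp23146_c0, the copy with the taxane terms, had the same order of organs at lower levels. It had 61.9 and 255 TPM in root, 2.71 and 10.56 TPM in leaf, 0.04 and 0.03 TPM in flower and 710 and 353 TPM in fruit. Again no neighbouring organs overlapped, and the mean was 159 ± 137 TPM in root, 6.63 ± 5.55 in leaf, 0.0350 ± 0.00707 in flower and 532 ± 252 in fruit (SD, n = 2 each). In flower it was barely detected, with 3 and 1 estimated counts, against 4645 and 17185 in root. Pooled over replicates, its root level was 2429 times its flower level, with an exact 95% interval of 949 to 8916 that covers counting error only. The fitted log2 fold change was 4.20 ± 0.82 for root over leaf, 11.17 ± 1.16 for root over flower, -1.99 ± 0.74 for root over fruit, 6.97 ± 1.03 for leaf over flower, -6.18 ± 0.90 for leaf over fruit and -13.15 ± 1.23 for flower over fruit.

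Comp22273_c0 was the leaf copy. It had 5.78 and 36.49 TPM in root, 163 and 237 TPM in leaf, 0.42 and 0.49 TPM in flower and 43.36 and 21.06 TPM in fruit. Both leaf libraries lay above all the others and both flower libraries below, whereas root and fruit overlapped and their order is not set by these samples. The mean was 21.1 ± 21.7 TPM in root, 200 ± 51.9 in leaf, 0.455 ± 0.0495 in flower and 32.2 ± 15.8 in fruit (SD, n = 2 each). The fitted log2 fold change was -3.72 ± 0.74 for root over leaf, 4.54 ± 0.78 for root over flower, -0.87 ± 0.67 for root over fruit, 8.26 ± 0.92 for leaf over flower, 2.85 ± 0.71 for leaf over fruit and -5.41 ± 0.81 for flower over fruit. Its flower level rested on 36 and 20 estimated counts. In these organs taken whole, fewer cells that make a transcript and less transcript per cell cannot be told apart.

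**Figure D1:**
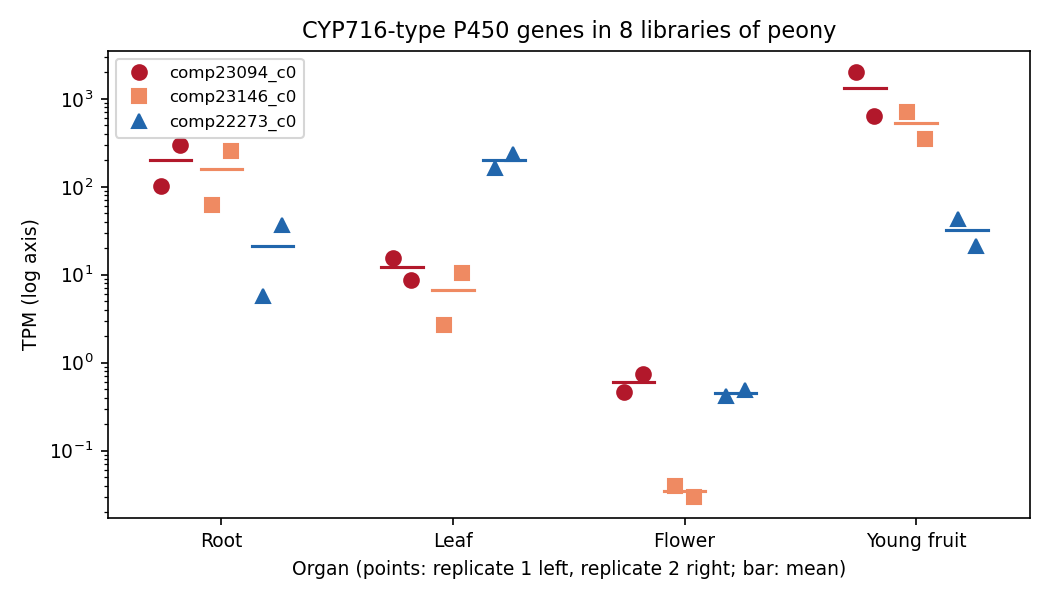
Level of each of the 3 CYP716-type genes in each library, in TPM on a log axis, by organ. Points are single libraries, with replicate 1 left of replicate 2, and bars are means of 2. The triangles of comp22273_c0 are highest in leaf (163 and 237 TPM), the circles and squares of the others in fruit, and all 3 genes lie below 1 TPM in flower.

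Replicates of root differed more for these genes than for most. Root replicate 2 was the higher in all 3, by 2.22 times for comp23094_c0, 3.12 times for comp23146_c0 and 4.78 times for comp22273_c0 in CPM, the count scaled to library size, here with trimmed-mean (TMM) factors. Of 11451 IDs with at least 5 such CPM in root, 20.2%, 11.9% and 6.80% had a ratio as large, against a median ratio of 1.41. In fruit, replicate 1 was the higher in all 3, by 2.23, 1.42 and 1.46 times in the same order of genes, against a median of 1.40 over 11669 IDs. Leaf was uneven as well for comp23146_c0, with replicate 2 higher by 3.26 times, a ratio reached by 3.95% of 11672 IDs (median 1.28). There comp23094_c0 was higher in replicate 1, by 2.13 times (10.4% of IDs), and comp22273_c0 in replicate 2, by 1.22 times (58.5%). Across all genes tested, root replicate 2 had a Pearson's r of log2 CPM of 0.844 and 0.816 with fruit replicates 1 and 2, and root replicate 1 of 0.738 and 0.743, with 0.874 between the root replicates, and the part of this in the root levels of the 3 genes was not tested. Without root replicate 2 the log2 fold change of root over leaf became 2.81 for comp23094_c0, 3.10 for comp23146_c0 and -5.31 for comp22273_c0, and without root replicate 1 that of comp22273_c0 became -2.99. Without root replicate 2 the log2 fold change of root over fruit became -3.66 for comp23094_c0, -3.09 for comp23146_c0 and -2.47 for comp22273_c0, and without root replicate 1 it became -1.39 for comp23146_c0 and -0.15 for comp22273_c0. No fold change of the 3 genes between any pair of organs changed sign when a library was left out.

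The make-up of the trio separated leaf from root and fruit in each replicate. Comp22273_c0 made up 3.41% and 6.18% of the summed TPM of the 3 genes in root, 89.9% and 92.5% in leaf, 45.7% and 38.6% in the flower and 1.56% and 2.08% in fruit. The sum itself was 170 and 590 TPM in root, 181 and 256 TPM in leaf, 0.920 and 1.27 TPM in flower and 2771 and 1014 TPM in fruit. The summed level of root replicate 1 thus lay below that of both leaf libraries although the mean of root was higher. Between the copies with the same order of organs, comp23094_c0 exceeded comp23146_c0 by 1.65 and 1.17 times in root and by 2.84 and 1.81 times in fruit. In leaf the ratio was 5.77 in replicate 1 and 0.826 in replicate 2, so that which copy is higher there is not set by these samples.

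Set among the 163 IDs with a P450 symbol or description, the 3 genes took a large share in fruit and almost none in flower. Their share of the summed TPM of those IDs was 1.90% and 6.98% in root, 5.53% and 5.68% in leaf, 0.0436% and 0.0734% in the flower and 20.3% and 16.2% in fruit. By mean TPM, comp23094_c0 ranked 13, comp23146_c0 17 and comp22273_c0 54 of 163 in root, where by the mean CYP72A1 comp22391_c0 (219 and 1608 TPM), the flavonoid hydroxylase CYP75B2 comp22990_c0 (1072 and 89.5 TPM) and comp11656_c0 (916 and 110 TPM) led. In leaf comp22273_c0 ranked 5, behind comp19271_c0, comp23060_c0 and comp6371_c0 with 281 ± 139, 252 ± 59.6 and 248 ± 97.9 TPM (SD, n = 2 each) and 1 other, while comp23094_c0 ranked 55 and comp23146_c0 77. In flower the 3 genes ranked 92, 125 and 96 in the order of their description above, below comp14850_c0 (358 and 350 TPM), the cutin-type fatty acid hydroxylase CYP86A2 comp22420_c0 (266 and 410 TPM) and comp22777_c0 (191 and 0.160 TPM). In fruit comp23094_c0 ranked 2 and comp23146_c0 4, with CYP72A1 comp22391_c0 (4167 and 1820 TPM) first and another CYP716B2, comp21634_c0 (1073 and 287 TPM), between them.

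**Figure D2:**
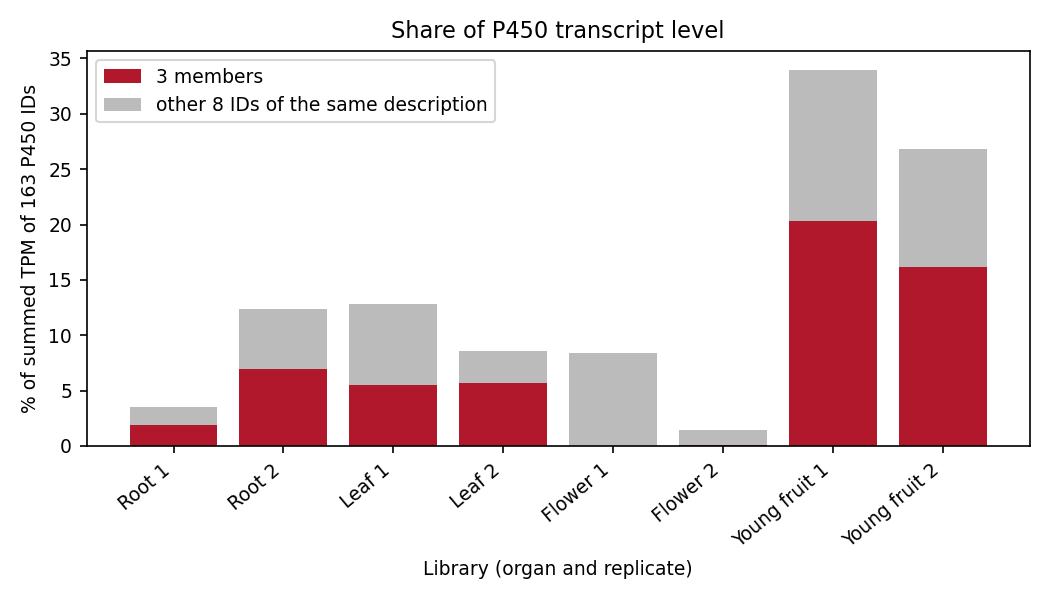
Share of the summed TPM of all 163 P450 IDs, in percent, taken by the 3 CYP716-type genes (red) and by the other 8 IDs of the same description (grey, stacked) in each library. The red bars reach 20.3% and 16.2% in fruit and are not visible in flower (0.0436% and 0.0734%).

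Another 8 IDs carried the same description word for word, and they had not been used to choose the 3 genes. Of these, 6 bear the symbol CYP716B2, comp19388_c0 bears CYP707A1, a symbol of abscisic acid oxidases, and comp6705_c0 bears none. Their highest organ by mean TMM CPM was fruit for 5 and root for 3, so 62.5% were highest in fruit, against 21.5% of 149 P450s tested and 19.1% of all genes tested. Those 149 include the 8 IDs and the 3 genes themselves. The highest organ overlapped the next for comp23041_c0 (fruit and flower), comp10123_c0 and comp13963_c0 (root and fruit) and comp6705_c0 (root and leaf). With the 3 genes included, the description took 3.49% and 12.4% of P450 TPM in root, 12.8% and 8.57% in leaf, 8.43% and 1.47% in the flower and 34.0% and 26.8% in fruit. Comp10123_c0, comp13963_c0 and comp6705_c0, the 3 that were highest in root, were short assemblies of 825, 387 and 372 bases and may be fragments of other copies.

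The copy nearest to the fruit and root pair was comp18132_c0. It had 29.75 and 104 TPM in root, 26.58 and 43.79 TPM in leaf, 1.92 and 2.11 TPM in flower and 452 and 253 TPM in fruit, with root and leaf overlapping. It was higher in root than in flower by 4.09 ± 0.57 on the log2 scale (edgeR adjusted p = 0.00734), lower in leaf than in fruit at -3.13 ± 0.55 (edgeR adjusted p = 0.0183) and lower in flower than in fruit at -6.73 ± 0.65 (edgeR adjusted p = 0.00494). The call of flower against fruit held in 8 of 8 fits that each left out 1 library, that of root against flower in 7 and that of leaf against fruit in 4. Against fruit, root stood at -2.64 ± 0.53, which missed the threshold (edgeR adjusted p = 0.0625). Comp23075_c0 came nearest to the leaf copy in its correlation, but fruit was its highest organ, with 0.72 and 6.25 TPM in root, 20.6 and 9.66 TPM in leaf, 0.04 and 0.05 TPM in flower and 50.53 and 23.98 TPM in fruit. Its log2 fold change of leaf over flower was 7.96 ± 1.21 (edgeR adjusted p = 0.00750) and that of root over flower 5.28 ± 1.13 (edgeR adjusted p = 0.0226), each kept in 6 of 8 such fits.

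Other copies gave smaller or less even differences. Comp21634_c0 had 79.48 and 197 TPM in root, 96.64 and 38.16 TPM in leaf, 36.54 and 15.54 TPM in flower and 1073 and 287 TPM in fruit, and passed for flower against fruit alone among the 6 pairs of organs (-3.85 ± 0.90, edgeR adjusted p = 0.0350, kept in 2 of 8 fits). Comp23041_c0 had 135 TPM in flower replicate 1 and 0.95 TPM in flower replicate 2, and none of its 6 comparisons passed (the smallest edgeR adjusted p was 0.646). Comp10123_c0 was higher in root than in leaf by 3.80 ± 0.68 (edgeR adjusted p = 0.0147), at 6.65 and 7.47 TPM in root against 0.39 in both leaf libraries, and the call held in 4 of 8 fits. The other ID called for root against leaf, comp19388_c0 at 2.74 ± 0.70 (edgeR adjusted p = 0.0499), lost its call in each of the 8 fits that left out a library.

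Counted over the 8 IDs, 2 were higher and 0 lower in root than in leaf, beside 4.45% and 7.92% of all genes tested. In root against flower 3 were higher and 0 lower, beside 9.39% and 11.2%. In root against fruit edgeR called 0 in either direction, beside 0.816% and 1.24%, with 4 lower at an unadjusted p under 0.05 and 4 lower by DESeq2. In leaf against flower 2 were higher and 1 lower, beside 10.0% and 9.32%, and in leaf against fruit 0 were higher and 3 lower, beside 6.05% and 3.59%. In flower against fruit 0 were higher and 5 lower, beside 8.06% and 6.65%. Among the other directions with 0 calls, root against leaf had 1 lower ID at an unadjusted edgeR p under 0.05 and 1 lower by DESeq2, and the rest had 0 by both. Single libraries decide most of these counts. In root against leaf, 0 were higher without either leaf or either root library and 1 without any other single library, and 1 was lower without root replicate 2. In root against flower, 0 were higher without flower replicate 1 and 1 without flower replicate 2, and in root against fruit 2 were lower without root replicate 2. In leaf against flower, 0 were higher without either flower library and 1 without leaf replicate 2, and 0 were lower without any single leaf or flower library. In leaf against fruit, 0 were lower without fruit replicate 2 or either leaf library and 1 without fruit replicate 1. In flower against fruit, 1 was lower without either flower library, 2 without either fruit library and 3 without either leaf library.

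**Figure D3:**
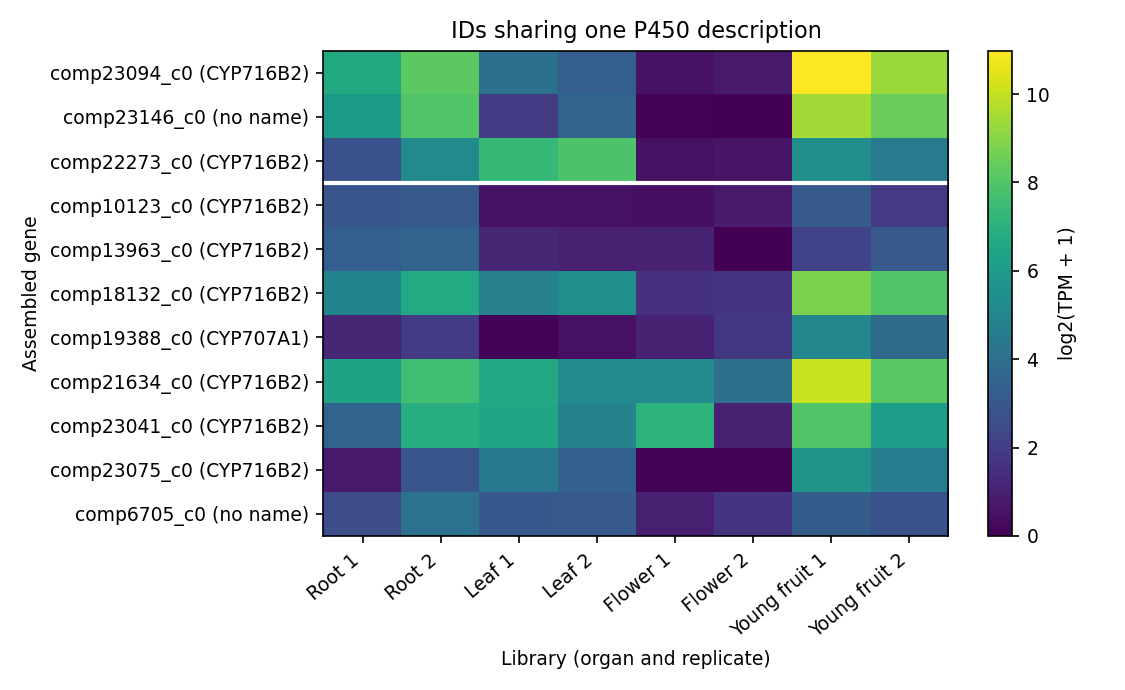
Level of the 11 IDs that share the description, as log2(TPM + 1) in colour, by library. The 3 CYP716-type genes stand above the white line and the other 8 IDs below it. The fruit columns are the brightest for 5 of the lower 8 IDs by mean level, and no lower row has its highest mean in leaf as comp22273_c0 has.

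Over the 8 libraries, log2 CPM of comp23094_c0 and comp23146_c0 had a Pearson's r of 0.973. Those of comp23094_c0 and comp22273_c0 had an r of 0.478, and those of comp23146_c0 and comp22273_c0 of 0.569. Comp18132_c0 had an r of 0.950 with comp23094_c0 and of 0.954 with comp23146_c0, and comp23075_c0 an r of 0.884 with comp22273_c0. These points share their organs and libraries, so the values describe likeness only, and 21 of 8736 other IDs with at least 5 CPM had an r of 0.973 or more with comp23094_c0. The 5 annotated IDs most like comp23094_c0 were ERF1B comp4320_c0, an ethylene response factor (r = 0.995, n = 8), MED33A comp19448_c0, a Mediator subunit (0.995), PDR2 comp19781_c0 (0.994), At1g26270 comp23023_c0 (0.992) and the glycosyltransferase UGT91C1 comp4881_c0 (0.989). PDR2 comp19781_c0 averaged 115 TPM in root, 24.7 in leaf, 5.34 in flower and 186 in fruit, and the UGT91C1 averaged 4.67, 0.460, 0 and 22.8 TPM in those organs.

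The IDs most like comp23146_c0 were UGT76E2 comp20478_c0 (r = 0.992, n = 8), the receptor kinase-type At1g18390 comp20495_c0 (0.990), the endoglucanase GLU3 comp3654_c0 (0.989), At5g23370 comp13962_c0 (0.984) and the subtilisin ARA12 comp20303_c0 (0.984). For the leaf copy comp22273_c0 they were the homeodomain-type BEL1 comp7855_c1 (r = 0.985, n = 8), LUT2 comp17054_c0, the lycopene epsilon cyclase of lutein formation (0.982), the alanyl-tRNA synthetase ALATS comp20423_c0 (0.981), TOC64 comp7470_c0 of the chloroplast envelope (0.980) and MSL2 comp18788_c0, a plastid mechanosensitive channel (0.979). LUT2 averaged 1.31 TPM in root, 42.9 in leaf, 0.0550 in flower and 3.12 in fruit. The others differed less between leaf and the organs other than flower. BEL1 averaged 5.53, 17.4, 0.330 and 8.08 TPM in the same order of organs, and ALATS 34.1, 40.7, 7.53 and 32.9 TPM. TOC64 averaged 9.90, 18.6, 3.05 and 12.0 TPM, and MSL2 23.6, 25.1, 9.40 and 20.7 TPM. Ranking by Spearman's rho instead kept 2 of the 5 for comp23094_c0, 0 for comp23146_c0 and 1 for comp22273_c0, so these names depend on the measure.

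The genes around the P450 step, 104 tested in 6 overlapping lists, were compared between root and the other organs. In root against leaf 11 were higher and 6 lower, a share of 10.6% and 5.77% beside 4.45% and 7.92% of all genes tested. In root against flower 12 were higher and 14 lower, 11.5% and 13.5% beside 9.39% and 11.2%. In root against fruit 1 was higher and 2 lower, 0.962% and 1.92% beside 0.816% and 1.24%. The median log2 fold change was 0.56, 0.13 and -0.18 in the same order, against 0.09, 0.17 and 0.01 for all genes tested. With scaling to total counts without the 20 highest IDs, the split was 13 higher and 3 lower in root against leaf and 20 higher and 9 lower in root against flower. These counts move with single libraries. In root against leaf, 2 were higher without either leaf library and 7 without root replicate 2, and 1, 2 and 3 were lower without leaf replicate 1, leaf replicate 2 and root replicate 1. In root against flower, 5 were higher and 4 lower without flower replicate 1, 7 higher and 7 lower without flower replicate 2, 7 higher without either leaf library, and 6 and 9 lower without root replicates 1 and 2. In root against fruit, 1 was higher and 4 were lower without root replicate 2, and 0 passed in either direction without any other single library.

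Among squalene and oxidosqualene enzymes, which make the triterpene scaffolds, edgeR called 0 of 17 higher or lower in root against leaf (1 higher and 4 lower at an unadjusted p under 0.05, and 1 higher and 2 lower by DESeq2). Of all genes tested, 4.45% were higher and 7.92% lower there. In root against flower 1 was higher and 3 lower, 5.88% and 17.6% beside 9.39% and 11.2% of all genes tested. The higher one was comp22869_c1, with the symbol OSCBPW of a birch lupeol synthase and the description of a cycloartenol synthase, at 94.0 and 107 TPM in root against 6.23 and 1.03 TPM in flower (4.30 ± 0.97, edgeR adjusted p = 0.0258). The squalene monooxygenase comp17349_c0 was lower, at 4.83 and 0.790 TPM in root against 18.3 and 54.4 TPM in flower (-4.34 ± 1.11, edgeR adjusted p = 0.0368). ERG1 comp25416_c0, a further squalene monooxygenase by its symbol, was lower in root than in flower (-2.74 ± 0.54, edgeR adjusted p = 0.0182) and was the 1 ID of the list that edgeR called lower in root than in fruit, at 1.51 and 4.72 TPM in root against 91.1 and 34.1 TPM in fruit (-4.52 ± 0.59, edgeR adjusted p = 0.0230). That 1 ID is 5.88% of the list, beside 1.24% of all genes tested. By other counts more of the 17 were lower in root than in fruit, with 4 at an unadjusted edgeR p under 0.05, 4 by DESeq2 and 2 by limma on log2(TPM + 1). The squalene monooxygenase comp19292_c0, named after its values were seen, had 9.11 and 37.0 TPM in root against 301 and 121 TPM in fruit and did not pass with edgeR. Without either flower library 0 of the list were lower in root against flower, and 1 without any other single library. In fits that left out 1 library, OSCBPW kept its call in 4 of 8, comp17349_c0 in 1, and ERG1 in 5 for root against flower and 1 for root against fruit.

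The sterol and brassinosteroid branch, which competes for the same oxidosqualene, gave 1 higher and 1 lower of 25 in root against leaf, 1 higher and 2 lower in root against flower and 0 higher and 1 lower in root against fruit (5 higher at an unadjusted p under 0.05 and 1 by DESeq2). Of all genes tested, 4.45% were higher and 7.92% lower in root against leaf, and 9.39% and 11.2% in root against flower. The shares that edgeR called in this list were below these in each direction. In root against fruit, beside 0.816% and 1.24% of all genes tested, the list's share was below for higher IDs. It was above for lower IDs, through 1 ID. The sterol methyltransferase SMT2 comp16099_c0 was lower, at 42.9 and 44.6 TPM in root against 311 and 352 TPM in flower (-3.77 ± 0.43, edgeR adjusted p = 0.00450, kept in 8 of 8 fits). SMO2-2 comp15412_c0, a methylsterol monooxygenase, was lower at 17.7 and 16.0 TPM in root against 65.5 and 138 TPM in flower (-3.23 ± 0.63, edgeR adjusted p = 0.0174, kept in 4 of 8). The remaining calls of this list were of CYP87A3 and CYP72A1 symbols described as brassinosteroid P450s, which are given with the P450s.

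Of 18 other IDs with CYP716 symbols or symbols of triterpene-oxidising P450 families, 5 were higher and 1 lower in root against leaf, 7 were higher and 0 lower in root against flower (1 lower at an unadjusted p under 0.05 and 1 by DESeq2), and 1 was higher and 1 lower in root against fruit. The shares were 27.8% and 5.56% in root against leaf, beside 4.45% and 7.92% of all genes tested. They were 38.9% and 0% beside 9.39% and 11.2% in root against flower, and 5.56% and 5.56% beside 0.816% and 1.24% in root against fruit. The median log2 fold change of the list was 2.57, 4.16 and -0.72 in that order, and 3.87 in root against flower with IDs at 0 in 1 organ set at their bound. CYP72A1 comp21547_c0 had 33.3 and 143 TPM in root against 2.16 and 2.58 TPM in leaf (4.75 ± 0.68, edgeR adjusted p = 0.00686, kept in 6 of 8 fits). CYP72A1 comp22391_c0, the first P450 of fruit and, through replicate 2 alone, of root by mean TPM, had 219 and 1608 TPM in root against 30.7 and 16.5 TPM in flower (4.22 ± 0.96, edgeR adjusted p = 0.0262, kept in 3 of 8). CYP87A3 comp6109_c0 had 36.1 and 125 TPM in root against 0.720 and 0.620 TPM in leaf (6.43 ± 0.66, edgeR adjusted p = 0.00379) and was at 0 in both flower libraries, at least 1717-fold higher in root against the floor of 3 counts over the flower libraries, with both calls kept in 8 of 8. Without a leaf library 2 were higher in root against leaf, while in root against flower 3 were higher without flower replicate 1 and 4 without flower replicate 2. These IDs entered the list by symbol, and some that were called carry descriptions of other reactions. Comp22391_c0 is described as an ent-kaurene oxidase, comp6109_c0 as a brassinosteroid-6-oxidase and comp11710_c0 as an abscisic acid 8'-hydroxylase. Whether any of them oxidises a triterpene was not tested.

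Members of 1 symbol went in opposite directions between root and fruit. CYP87A3 comp19106_c0 was lower, at 0.05 and 0.700 TPM in root against 95.1 and 59.7 TPM in fruit (-7.98 ± 1.20, edgeR adjusted p = 0.0319), and CYP87A3 comp11710_c0 was higher, at 5.97 and 7.63 TPM in root against 0.0800 and 0.0700 TPM in fruit (6.29 ± 0.78, edgeR adjusted p = 0.0392). The first kept its call in 1 and the second in 0 of 8 fits that left out a library. CYP72A1 comp17433_c0 was lower in root at 0 and 0.220 TPM, against 6.09 and 7.67 TPM in leaf (-6.40 ± 1.41, edgeR adjusted p = 0.0310, kept in 2 of 8).

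The other P450s of the clan, 16 tested, include several of the same CYP87 IDs and the abscisic acid oxidases. In root against leaf 3 were higher and 2 lower, in root against flower 3 were higher and 2 lower, and in root against fruit 1 was higher and 1 lower. The shares were 18.8% and 12.5% in root against leaf, beside 4.45% and 7.92% of all genes tested. They were 18.8% and 12.5% beside 9.39% and 11.2% in root against flower, and 6.25% and 6.25% beside 0.816% and 1.24% in root against fruit. CYP707A2 comp21928_c0, of the family that inactivates abscisic acid, was at 0 in both root libraries against 30.4 and 37.3 TPM in flower, at least 3303-fold lower in root against 3 counts over the root libraries (edgeR adjusted p = 0.00283, kept in 8 of 8 fits). CYP707A4 comp12857_c0 was also at 0 in root against 2.06 and 9.26 TPM in leaf, at least 191-fold lower (edgeR adjusted p = 0.00907, kept in 8 of 8).

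The list of electron donors to P450s caught 15 IDs with symbols of other families, among them CPRF2 and CYB561A, and 13 of 28 IDs remained without them. Of the 13, edgeR called 0 higher and 1 lower in root against leaf, 0 higher and 4 lower in root against flower and 0 in root against fruit. The shares were 0% and 7.69% in root against leaf, beside 4.45% and 7.92% of all genes tested. They were 0% and 30.8% beside 9.39% and 11.2% in root against flower, and 0% beside 0.816% and 1.24% in root against fruit. At an unadjusted p under 0.05, 2 were higher in root against leaf, 0 were higher in root against flower, and 0 were higher and 3 lower in root against fruit. With all 28, the counts were 1 higher and 3 lower, 0 higher and 6 lower, and 0 in either direction, and DESeq2 called 3 of the 28 lower in root against fruit. As shares of the 28 these were 3.57% and 10.7% in root against leaf and 0% and 21.4% in root against flower. That split depends on the method, as in root against flower limma on log2(TPM + 1) gave 4 higher and 1 lower, scaling to total counts without the 20 highest IDs gave 1 higher and 2 lower, and leaving out single libraries gave 1 to 4 lower. In root against leaf 0 of the 28 were lower under limma, under that scaling, and without either leaf library or root replicate 1. CBR1 comp15048_c0, a cytochrome b5 reductase, was lower at 28.8 and 41.8 TPM in root against 73.1 and 71.7 TPM in flower (-1.93 ± 0.33, edgeR adjusted p = 0.0119, kept in 5 of 8 fits). CYTB5-B comp6912_c0, a cytochrome b5 by its symbol, was lower at 27.4 and 61.2 TPM in root against 57.4 and 65.5 TPM in flower (-1.39 ± 0.34, edgeR adjusted p = 0.0329, kept in 1 of 8), with overlapping TPM.

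Of 14 UGT73 and UGT91 glycosyltransferases, 4 were higher and 0 lower in root against leaf (0 lower at an unadjusted p under 0.05 and by DESeq2), 3 were higher and 1 lower in root against flower, and edgeR called 0 in root against fruit (1 higher and 3 lower at an unadjusted p under 0.05 and by DESeq2). The shares were 28.6% and 0% in root against leaf, beside 4.45% and 7.92% of all genes tested. They were 21.4% and 7.14% beside 9.39% and 11.2% in root against flower, and 0% beside 0.816% and 1.24% in root against fruit. Without either leaf library 0 were higher in root against leaf, and 2 without either fruit library. In root against flower 0 were higher without flower replicate 1 and 1 without flower replicate 2, and 2 were lower without root replicate 2. UGT73C3 comp26946_c0 had 41.4 and 44.5 TPM in root against 2.59 and 5.67 TPM in leaf (3.07 ± 0.56, edgeR adjusted p = 0.0161, kept in 5 of 8 fits). UGT73B4 comp33933_c0 had 14.2 and 18.0 TPM in root against 0.690 and 0.890 TPM in leaf (3.99 ± 0.54, edgeR adjusted p = 0.00542, kept in 6 of 8). A second UGT73C3, comp11497_c0, went the other way in root against flower, at 38.8 and 36.8 TPM in root against 1898 and 1149 TPM in flower (-6.21 ± 0.76, edgeR adjusted p = 0.00540, kept in 8 of 8).

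**Figure D4:**
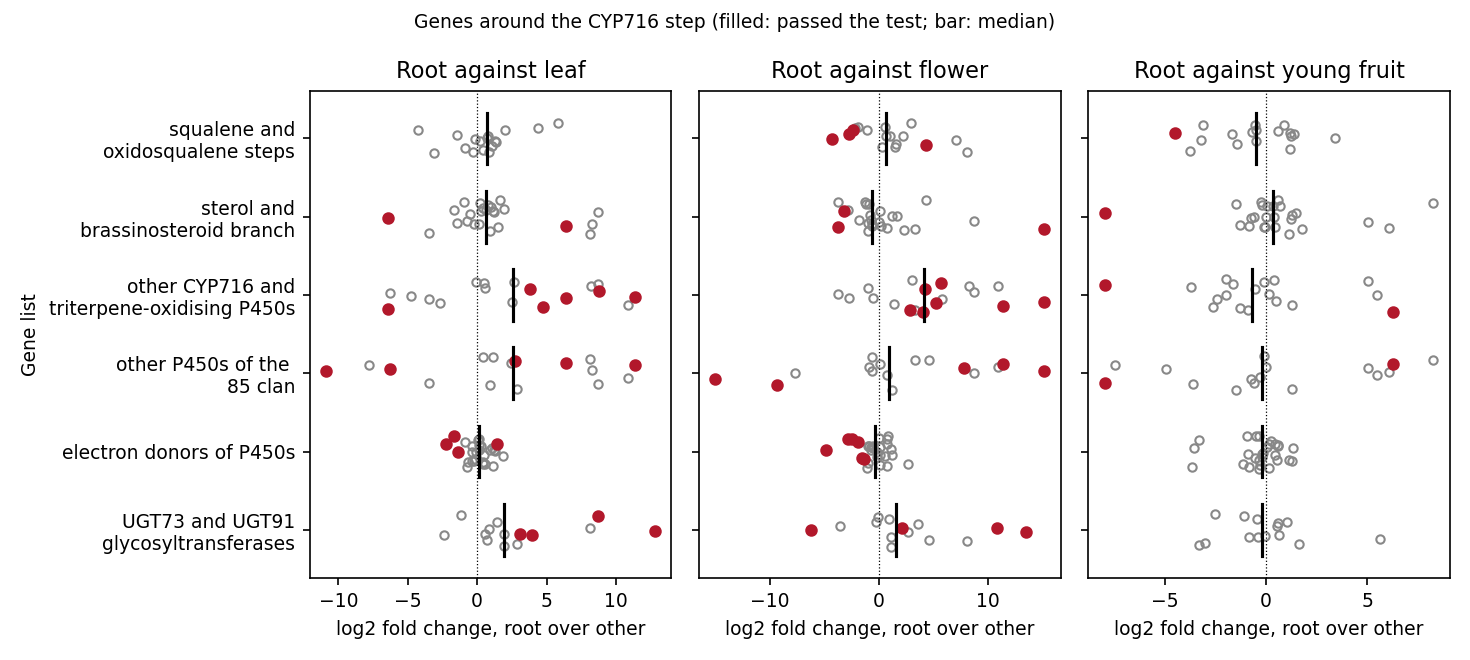
Fitted log2 fold change of root over leaf, flower and fruit for each tested ID of 6 gene lists around the CYP716 step, 1 panel per comparison. Filled points passed the test, open points did not, bars are list medians, an ID in several lists is drawn in each, and values of IDs at 0 in 1 organ depend on the fit and have no true size. Filled points of the list of CYP716 and triterpene-oxidising family symbols lie mostly to the right in root against leaf (5 higher, 1 lower). In root against flower all lie to the right (7 higher). That list rests on symbols, and some of its IDs carry descriptions of other reactions.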

How the data were processed

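Per the labels, total RNA was selected for poly(A), fragmented and reverse-transcribed, and read in paired ends on an Illumina instrument. The authors deposited one table for all 8 libraries with estimated counts, TPM and RPKM per gene of a de novo assembly, without a genome. The sources used here do not give the assembler, aligner or counting tool. The estimated counts deposited by the authors are not normalised. The TPM values deposited by the authors are scaled by effective length and to a common total. The deposited RPKM were not used. Gene lengths are the authors' bases per gene. Strand is not stated, so antisense transcripts cannot be told apart. Names, descriptions and terms come from the table.

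Counts were rounded and fitted with edgeR 4.0.16 (quasi-likelihood, TMM, filterByExpr by organ; limma 3.58.1, R 4.3.3) in 1 model of 8 libraries with 4 residual degrees of freedom and a biological coefficient of variation of 0.667. That filter left 27939 genes and dropped 2238. The SE printed with an edgeR log2 fold change is its size divided by the square root of the quasi-likelihood F statistic. It is an approximation and not a standard error taken from the fitted coefficient. The code of the fit was checked on simulated counts that varied less than these data and had a common mean profile apart from genes raised in root. That check does not show how the test performs on these data. The edgeR p-values are two-sided and weigh a difference against the spread between replicate libraries. That spread is estimated over all organs together and moderated across genes. Members and lists were chosen with earlier results of these data known. Named genes are up to 2 higher and 2 lower per list and root comparison with the highest mean CPM among those that passed, the 5 annotated IDs of highest r with each member (log2 CPM, prior count 2, mean of at least 5 CPM), the 3 highest P450s per organ, and the IDs sharing the description, of which comp21634_c0, comp23041_c0, comp13963_c0 and comp6705_c0 were named after their values were seen. P450s exclude 11 cyclophilin-type symbols. Comparisons that share an organ share its libraries. Alternatives were RLE factors, total counts without the 20 highest IDs, DESeq2 1.42.0, no filter, limma on log2(TPM + 1), a replicate block and leaving out each library. Removing unrelated electron-donor symbols was chosen after seeing the data.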

Additional observations from a re-analysis of the deposited data

How the results depend on the processing

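All 252 fold changes of the 3 genes under alternatives kept their direction, and 240 moved by less than the replicate spread. Of the 108 that kept all 8 libraries, 98 moved by less than that spread and 10 by more. The rest left out 1 library. A library of an organ outside the comparison moves a value little, so those fits say little about the processing. With limma on log2(TPM + 1), which compresses low levels, the log2 fold change of leaf over flower became 2.99 for comp23094_c0, 2.66 for comp23146_c0 and 7.08 for comp22273_c0, root over flower became 6.94 for comp23146_c0, and flower over fruit became -8.92 for comp23146_c0 and -4.43 for comp22273_c0. Scaling to total counts without the 20 highest IDs moved the median log2 fold change of all genes by 0.45 in root against leaf, 0.66 in root against flower, 0.21 in leaf against flower, -0.41 in leaf against fruit and -0.65 in flower against fruit. It gave flower over fruit of -13.82 for comp23146_c0 and -6.07 for comp22273_c0, and leaf over flower of 8.48 and leaf over fruit of 2.41 for comp22273_c0. With single libraries left out, the log2 fold changes of root over leaf, flower and fruit, leaf over flower and fruit, and flower over fruit ran, in that order, for comp23094_c0 2.81 to 4.20, 6.80 to 7.92, -3.66 to -2.21, 3.25 to 4.45, -7.10 to -5.70, -10.96 to -9.70, for comp23146_c0 3.10 to 5.21, 10.16 to 11.77, -3.09 to -1.39, 6.0 to 7.59, -7.27 to -5.57, -13.67 to -12.89, for comp22273_c0 -5.31 to -2.99, 3.05 to 5.27, -2.47 to -0.15, 8.22 to 8.40, 2.55 to 3.20, -5.81 to -5.16.

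Counts of pathway genes depended more on the tool, and the cause was not tested. Higher genes numbered 21 with DESeq2 and 17 with limma in root against leaf (main 11), 23, 27 and 20 with DESeq2, limma and the total scaling in root against flower (main 12), and 3 and 4 with DESeq2 and limma in root against fruit (main 1). Lower genes numbered 13 with DESeq2 and 3 with the total scaling in root against leaf (main 6), 24, 6 and 9 with DESeq2, limma and the total scaling in root against flower (main 14), and 16 and 4 with DESeq2 and limma in root against fruit (main 2). With single libraries left out, where a lone library is assumed to vary like the other organs, higher genes ran from 2 to 9, 5 to 12 and 0 to 1, and lower genes from 1 to 6, 4 to 11 and 0 to 4, in root against leaf, flower and fruit. Removing the unrelated electron-donor symbols gave 10 higher and 4 lower, 12 and 12, and 1 and 2.

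With the replicate number as a block, higher genes were 11, 11 and 0 and lower genes 6, 12 and 2. The block ended the calls of comp11710_c0 in root against fruit, comp17349_c0 in root against flower and comp10123_c0 in flower against fruit. Deviations of same-numbered libraries correlated at 0.384 to 0.489 among root, leaf and flower and at -0.156 to 0.101 between fruit and the others. The labels do not say what a number marks, so the block is kept as an alternative. Precision is limited by 2 libraries per organ and, for the 3 genes in flower, by 77, 4 and 56 counts.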
